A study of Mus musculus with 24 samples.

Results

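Ribosomal proteins are the protein subunits of the ribosome, and a cell carries 2 kinds of ribosome. The genes described here were the rows of the deposited table named for cytosolic ribosomal proteins (Rpl, Rps, Rplp0, Rplp1, Rplp2 and Rpsa) or for mitochondrial ribosomal proteins (Mrpl and Mrps). Ribosomal S6 kinases, pseudogenes and rows with joined names were left out. They came to 149 of 12224 rows, 78 cytosolic and 71 mitochondrial. Mrps9 had a pair of rows, and the second of these had a mean level too low to be tested, so 148 rows were tested. One row kept by its name, Rps19bp1, encodes a protein that binds a ribosomal protein and is not itself a subunit. No row was analysed here for Rpl3 or Rpl39l.

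Poly(A) RNA was sequenced from mpkCCD cells, a mouse epithelial line of the kidney cortical collecting duct, in 4 groups of 6 libraries. The groups were WT cells with vehicle, WT cells with agonist, Gpr39 KO cells with vehicle and Gpr39 KO cells with agonist. All cells had been grown on transwell inserts for 9 days in medium without dDAVP, a vasopressin analogue, and had spent 24 h in a simpler medium. The agonist groups then received 1 µM cpd1324 with 10 µM ZnCl2 for 2 h on the basolateral side, and the vehicle groups 0.1% DMSO with the same 10 µM ZnCl2, so zinc was common to every group. The labels do not state whether the agonist groups also received DMSO; if they did not, the agonist and the absence of DMSO cannot be told apart. GPR39 is a zinc-sensing receptor, and the design asks what the agonist changes and whether the change needs the receptor. The labels do not give the number of KO clones, the edited part of Gpr39, or whether replicates were separate cultures, so p-values measure only the spread between these libraries, which may be technical.

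Cytosolic ribosomal proteins build the small and large subunits that translate nuclear messages, and growth signals are known to control many of their mRNAs at translation through a pyrimidine run at the start of the message. Mitochondrial ribosomal proteins are encoded in the nucleus, made in the cytosol and imported. There they build the mitochondrial ribosome, which translates the few messages of the mitochondrial genome, all for proteins of oxidative phosphorylation. In the collecting duct, ATP from oxidative phosphorylation supports the sodium transport of principal cells.

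RefSeq promoter windows of GRCm38.p6, 250 bases before to 50 bases after each start, were found by symbol for 61 of the 78 cytosolic and 61 of the 70 distinct tested mitochondrial names. A pyrimidine run was searched as a C exactly at the annotated start followed by at least 4 bases that are C or T, on the gene's strand. It was present in 13 cytosolic genes (21.3%), in 0 mitochondrial genes and in 3.01% of all 27025 genes with a window. When the run could begin within 5 bases of the start, the shares were 47.5%, 27.9% and 21.2%. The motif CCGGAAG, searched on both strands as CCGGAAG or CTTCCGG anywhere in the window, was in 37.7% of cytosolic, 36.1% of mitochondrial and 9.93% of all genes. These matches are descriptions of sequence and no test of binding or control. Shown first are 5 cytosolic genes whose annotated start carries the run, and then 4 mitochondrial genes whose levels are given further on. Each window runs from 30 bases before to 20 bases from the start, 5′ to 3′ on the gene's strand, with the run at the start or a CCGGAAG match in capitals.
Rps6 (chr4:86857348-86857397, minus strand): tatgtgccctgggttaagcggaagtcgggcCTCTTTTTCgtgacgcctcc
Rpl15 (chr14:18270967-18271016, minus strand): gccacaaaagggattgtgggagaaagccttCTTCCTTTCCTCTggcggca
Rps27 (chr3:90213629-90213678, minus strand): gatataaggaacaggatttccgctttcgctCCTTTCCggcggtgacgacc
Rps18 (chr17:33955646-33955695, minus strand): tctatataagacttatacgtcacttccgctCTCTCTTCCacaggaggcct
Rplp2 (chr7:141447621-141447670, plus strand): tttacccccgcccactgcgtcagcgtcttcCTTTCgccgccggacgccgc
Mrpl44 (chr1:79775988-79776037, plus strand): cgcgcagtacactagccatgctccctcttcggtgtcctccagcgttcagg
Mrpl43 (chr19:45006423-45006472, minus strand): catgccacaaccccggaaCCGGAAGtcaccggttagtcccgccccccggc
Mrpl34 (chr8:71464896-71464945, plus strand): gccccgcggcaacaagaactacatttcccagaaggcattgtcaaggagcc
Mrps10 (chr17:47369167-47369216, plus strand): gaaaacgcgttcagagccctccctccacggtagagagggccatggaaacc
Each of the 5 cytosolic windows has the run at its start, and among the 4 mitochondrial windows only that of Mrpl43 holds a CCGGAAG match.

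The deposited values are read counts per gene length after a library factor. A single factor for all values set the average column total to 1000000, and values on that scale are called scaled units. Per library 29.8 to 51.9 M reads (M, 1000000) were recovered from the values. Gpr39 itself had a median of 20.9 scaled units (20.3 to 24.5) in WT vehicle libraries and 9.25 (8.52 to 10.4) in KO vehicle libraries, a log2 difference of -1.16 ± 0.06 (moderated SE, adjusted p = 3.4e-14). Reads outside the edited part would not test the knockout, and that part is not given. Of 10 principal cell markers 8 were in the table, among them Aqp2 and Scnn1a, with a summed level of 452 to 912 in every library. Their ranges were 554 to 683 in WT vehicle, 452 to 578 in WT agonist, 802 to 912 in KO vehicle and 613 to 875 in KO agonist libraries. Of 6 intercalated cell markers 2 were in the table with a sum of at most 2.35, and 0 of 3 endothelial markers were. Of 4 markers of the thick limb and distal tubule, Slc12a3 alone was in the table, at 0.1998 to 0.740 in WT vehicle, 0.233 to 0.572 in WT agonist, 4.95 to 7.75 in KO vehicle and 4.11 to 6.33 in KO agonist libraries. Of 5 proximal tubule markers Lrp2 alone was, at 8.06 to 10.6, 11.0 to 16.4, 4.49 to 6.77 and 4.66 to 8.91 in the same order. Of 4 fibroblast markers Col1a1 alone was, at 0.629 to 3.27. Of 3 leukocyte markers 2, Cd68 and Csf1r, summed to 48.1 to 80.0. The part of these levels in the results below was not tested. KO vehicle replicate 6 stood apart from its group: its root mean square log2 deviation over all tested rows was 0.328, against 0.114 to 0.175 in the other 23 libraries. It was the lowest of its group in 47 and the highest in 22 of the 78 cytosolic rows, and KO counts of both classes are given with and without it, as are values of single genes where stated.

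The cytosolic class was far more abundant per gene than the mitochondrial class. Levels are per length and can be compared between genes, subject to the gene length listed in the table. The median cytosolic row stood at 1137 scaled units over all libraries, the median mitochondrial row at 45.7 and the median tested row of the whole table at 32.2. The highest cytosolic levels were those of Rplp1 (5570), a protein of the stalk that recruits translation factors, Rpl13 (4910), Rps15 (4579), Rps29 (4102) and Rps18 (3249). Levels of the lowest were 66.2 for Rps28, 89.6 for the retrogene Rps23rg1, 137.7 for Rpl7l1, 141.0 for Rps19bp1 and 205.1 for Rps15a. Rps28 and Rps15a were listed with gene lengths of 3787 and 4270 bases, against a class median of 1249.5, and their levels are divided by those lengths.

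Among mitochondrial genes the highest levels were those of Mrpl9 (257.6), Mrpl42 (186.9), Mrpl12 (171.7), Mrpl23 (144.1) and Mrpl34 (136.4). The lowest tested were Mrps25 (2.15), Mrps7 (5.80), Mrpl16 (6.68), Mrpl27 (7.92) and Mrpl19 (7.93). Even Mrps25 had 129 to 274 reads in each library. These levels are per length as well, and Mrps25 is listed at 8136 bases and Mrpl23 at 630.

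Summed over the class, cytosolic ribosomal protein mRNA came to 113828 ± 5829 scaled units (SD, n = 6) in WT vehicle libraries and 123054 ± 8702 in WT agonist libraries. The KO sums were 110154 ± 5427 with vehicle and 107107 ± 4788 with agonist. The mitochondrial sums were 4248 ± 135, 3980 ± 193, 4335 ± 82.5 and 4154 ± 123 in the same order. The column total of the WT agonist libraries was itself larger, 1141980 ± 43437 against 965380 ± 22588 in WT vehicle libraries, so shares and sums differ in direction for the cytosolic class. As a share of the column total it was 11.8 ± 0.368% in WT vehicle and 10.8 ± 0.602% in WT agonist libraries, with overlapping ranges. The mitochondrial share was 0.440 ± 0.00851% against 0.349 ± 0.0180%, and here the highest agonist library (0.363%) lay below the lowest vehicle library (0.427%). The KO shares were 11.5% and 11.5% for the cytosolic class and 0.453% and 0.444% for the mitochondrial class, vehicle before agonist.

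**Figure D1:**
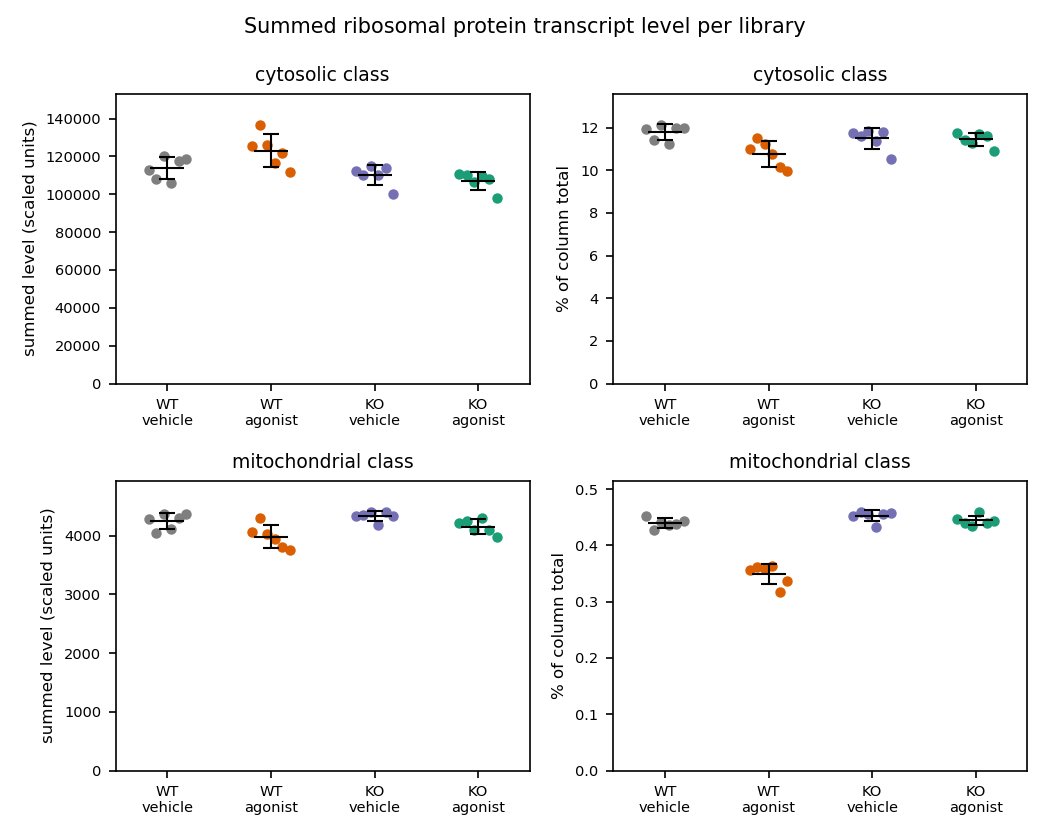
Summed level of each class per library, in scaled units (left) and in percent of the column total (right), for 6 libraries per group; points are libraries, and bars show the mean and SD. The WT agonist libraries are higher than WT vehicle on average for the cytosolic sum but lower as a share, and lower on average in both panels for the mitochondrial class.

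The ratio of the cytosolic sum to the mitochondrial sum depended on the scaling. In the deposited values, where a factor applied to a whole library does not change it, it was 26.8 ± 0.654 (SD, n = 6; range 25.7 to 27.5) in WT vehicle and 30.9 ± 1.05 (29.6 to 32.0) in WT agonist libraries, which did not overlap. In KO cells it was 25.4 ± 1.21 (23.1 to 26.3) with vehicle and 25.8 ± 0.647 (24.6 to 26.4) with agonist, ranges that overlapped. KO vehicle replicate 6 gave the lowest of these KO values. With quantile scaling, which changes values within a library and was added for this ratio after seeing the data, it was 27.4 ± 0.690 (26.8 to 28.4) in WT vehicle and 27.4 ± 0.513 (26.6 to 28.0) in WT agonist libraries, which overlapped. In KO cells it was then 26.5 ± 0.873 (24.7 to 27.1) and 28.0 ± 0.775 (26.7 to 28.8). In bulk RNA, fewer cells of a type and less RNA per cell cannot be told apart.

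The first comparison was the agonist against vehicle in WT cells. Log2 fold changes were taken on scaled units + 0.5, and a row was called at a Benjamini-Hochberg adjusted p under 0.05 from limma over 11557 rows. With the deposited scaling, 23 of 78 cytosolic genes were higher and 0 were lower, where 28.6% of all tested rows were called higher and 28.6% lower. The median cytosolic log2 fold change was 0.10, against -0.01 for all rows, and 73 of the 78 were above 0. At an unadjusted p under 0.05, 31 cytosolic genes were higher and 0 lower, and voom on the recovered reads gave 26 and 0. Of the mitochondrial genes 9 were higher and 30 lower at that unadjusted p. In limma fits that each left out 1 library, 6704 to 7163 of all rows passed that unadjusted p in either direction. That range pools both directions and comes from other fits, so it is no background for the member counts by direction. Of 70 mitochondrial genes 26 were lower and 6 higher, with a median of -0.11. The cytosolic share called higher was close to the background share, while no cytosolic gene was among the rows called lower.

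The cytosolic direction depended on how libraries were scaled, and the mitochondrial direction less so. With median ratio scaling the counts were 22 higher and 0 lower for the cytosolic class and 6 higher and 26 lower for the mitochondrial class. The share of all rows called under that scaling is not given here, so these counts stand without a background. The median of all rows was -0.009 there and -0.007 as deposited. With quantile scaling they became 0 higher and 64 lower, and 3 higher and 37 lower, where 23.2% of all rows were called higher and 35.8% lower. With libraries brought to 1 common total (same-total scaling), 0 cytosolic genes were higher and 41 lower, and 0 mitochondrial genes were higher and 62 lower, where 12.4% and 60.1% of all rows were called. Same-total scaling moved the median of all rows to -0.24. Relative to the median of all rows, the cytosolic median was 0.11 as deposited, 0.11 with median ratio, 0.10 with the same total and -0.16 with quantile scaling. The mitochondrial median relative to it was -0.10, -0.10, -0.11 and -0.08 in that order.

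Only calls that held in 1 direction under all 4 scalings did not depend on which of these 4 was used. The deposited and median ratio scalings were close to each other, with cytosolic medians of 0.101 and 0.099. No cytosolic gene was called in 1 direction under all 4, and 18 were called in opposite directions by different scalings. Of the mitochondrial genes 23 of 70 (32.9%) were lower under every scaling and 0 were higher, against 25.2% and 12.2% of all rows. Leaving out 1 library moved the cytosolic count of 23 to 14 (WT vehicle replicate 2), 13 (WT vehicle replicate 4), 13 (WT agonist replicate 2) or 35 (WT agonist replicate 6). The mitochondrial count of 26 lower genes stayed between 20 and 31 when each library was left out. The 6 higher mitochondrial genes fell to 3 without WT agonist replicate 2.

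**Figure D2:**
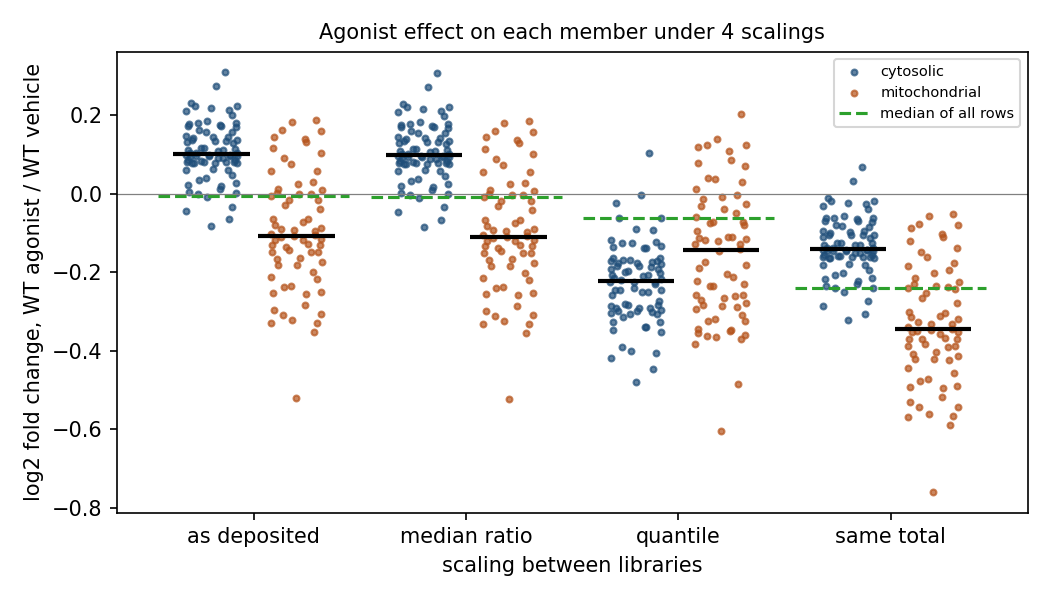
Log2 fold change of each ribosomal protein gene with agonist in WT cells under 4 scalings; each point is a gene, black lines are class medians and dashed green lines the median of all tested rows. The cytosolic points lie mostly above 0 with the first pair of scalings and below 0 with the other pair, while the mitochondrial medians lie below the all-row median throughout.

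Mrpl44 had the largest fall of any ribosomal protein gene with the agonist. It encodes a large subunit protein of the ribonuclease III family. Its level was 71.5 to 83.8 (median 75.3) in WT vehicle libraries and 49.8 to 58.5 (median 52.1) in WT agonist libraries. The ranges were far apart, and the log2 fold change was -0.52 ± 0.07 (moderated SE, adjusted p = 3.0e-07), or 0.698-fold. In KO cells it was 55.8 to 78.9 (median 75.1) with vehicle and 66.8 to 76.7 (median 69.8) with agonist, which overlapped.

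Mrpl43, a mitochondria-specific large subunit protein whose promoter carries the CCGGAAG match shown above, was at 32.0 to 34.6 (median 33.2) with vehicle and 24.4 to 27.9 (median 26.0) with agonist in WT cells. Every agonist library was below every vehicle library, with a log2 fold change of -0.35 ± 0.04 (adjusted p = 1.4e-08). In KO libraries the ranges overlapped narrowly, 35.5 to 38.4 with vehicle and 33.5 to 35.9 with agonist.

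Mrpl34, a small basic large subunit protein, was at 126.1 to 144.2 (median 135.8) with vehicle and 95.7 to 122.8 (median 111.6) with agonist in WT cells. These did not overlap, and the log2 fold change was -0.32 ± 0.06 (adjusted p = 1.4e-04). In KO cells its median was 150.3 with either treatment.

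Mrpl35, a large subunit protein of a bacterial family, was lower with agonist in both genotypes. Its WT level was 40.3 to 53.0 (median 45.2) with vehicle and 32.8 to 41.0 (median 36.7) with agonist, ranges that overlapped slightly, with a log2 fold change of -0.33 ± 0.07 (adjusted p = 1.5e-04). Mrps34, a mitochondria-specific small subunit protein, was at 28.0 to 31.6 with vehicle and 23.0 to 25.3 with agonist, with a log2 fold change of -0.33 ± 0.10 (adjusted p = 0.0080). Mrpl41, another mitochondria-specific protein, was at 18.4 to 22.2 and 14.8 to 18.1, with -0.31 ± 0.09 (adjusted p = 0.0034). In both of the latter genes the WT ranges were apart.

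Further falls without overlap were those of Mrpl14 and Mrps31. Mrpl14 is a conserved large subunit protein at the interface of the subunits, and went from 21.2 to 24.0 with vehicle to 17.5 to 20.2 with agonist (log2 fold change -0.28 ± 0.04). Mrps31 is a mitochondria-specific small subunit protein and went from 20.9 to 22.4 with vehicle to 15.2 to 19.7 with agonist (-0.30 ± 0.05). All 8 genes named so far as lower were lower under every scaling. In all, 15 mitochondrial genes were lower with no overlap between the WT groups, where 17.7% of all rows were, and 7 cytosolic genes were higher with no overlap, where 19.8% were.

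**Figure D3:**
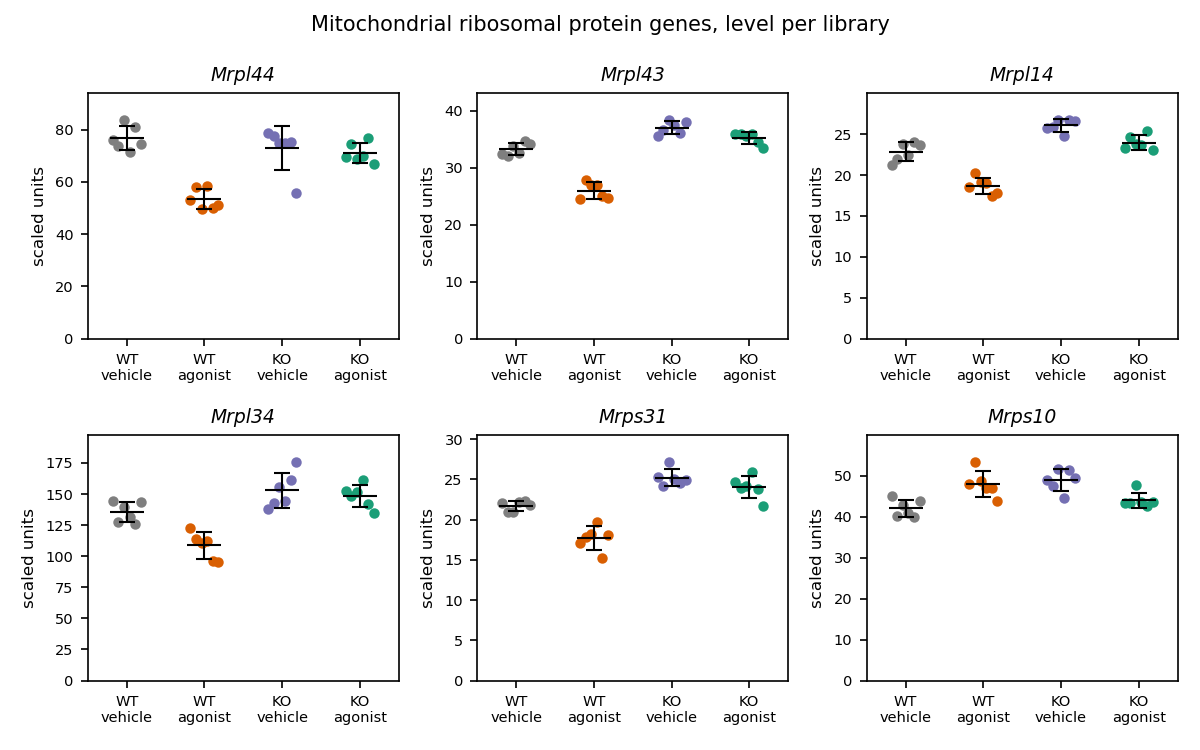
Levels of 6 mitochondrial ribosomal protein genes per library in scaled units, 6 libraries per group; points are libraries, and bars show the mean and SD. The first 5 are lower in every WT agonist library than in any WT vehicle library, and Mrps10 is higher on average with agonist in WT cells and lower in KO cells.

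The falls included proteins with other known roles. Mrpl12, a stalk protein reported to bind the mitochondrial RNA polymerase, had a log2 fold change of -0.17 ± 0.06 (adjusted p = 0.019), which missed the threshold without WT agonist replicate 5 (adjusted p = 0.060) or replicate 6 (0.052). Mrpl58, a peptidyl-tRNA hydrolase built into the ribosome, had -0.13 ± 0.05 (adjusted p = 0.020), which missed it without WT agonist replicate 3 (0.052) or replicate 5 (0.060). Mrps36, which is also known as a subunit of the 2-oxoglutarate dehydrogenase complex, did not pass the test (-0.04 ± 0.10, adjusted p = 0.77). Of the 28 mitochondria-specific proteins 13 were lower and 1 higher, and all 13 were lower under every scaling. Of 42 tested proteins with a bacterial counterpart 13 were lower and 5 higher, and 10 were lower under every scaling. By subunit, 18 of 43 large (41.9%) and 8 of 27 small subunit genes (29.6%) were lower, against 28.6% of all rows.

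The few mitochondrial genes that were higher changed little. Mrps10, a small subunit protein of a bacterial family, was at 40.0 to 44.9 (median 41.8) with vehicle and 43.7 to 53.4 (median 47.5) with agonist in WT cells. These ranges overlapped, and the log2 fold change was 0.19 ± 0.05 (adjusted p = 0.0012). Mrpl3, a large subunit protein near the catalytic centre, had 0.16 ± 0.04 (adjusted p = 0.0012), and Mrpl20, which is needed for assembly of the large subunit in bacteria, had 0.16 ± 0.06 (adjusted p = 0.021). Mrpl21, Mrpl4 and Mrpl37 had log2 fold changes of 0.14, 0.13 and 0.12. All 6 were below 0 with same-total scaling, and 3 of them missed the threshold when a library was left out. Mrpl20 did so without WT agonist replicate 2 (adjusted p = 0.073) or WT vehicle replicate 2 (0.064). Mrpl21 did so without WT agonist replicate 2 (adjusted p = 0.064) or WT vehicle replicates 2 (0.066) or 4 (0.053). Mrpl37 did so without WT agonist replicates 2, 3 or 5 or WT vehicle replicates 3, 4 or 5 (adjusted p 0.061 to 0.087).

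Among cytosolic genes, paralogues of core subunits had the highest log2 fold changes under the deposited scaling. Rpl7l1 is a paralogue of Rpl7 that acts in assembly of the large subunit. It was at 122.6 to 135.3 (median 129.6) with vehicle and 149.5 to 175.7 (median 159.9) with agonist in WT cells. The ranges were apart, and the log2 fold change was 0.31 ± 0.06 (adjusted p = 4.9e-05). In KO cells it was 105.6 to 143.8 with vehicle and 120.1 to 139.3 with agonist. It stayed above 0 under every scaling, at 0.11 with quantile and 0.07 with same-total scaling, where it did not pass the test.

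Rpl22l1, the paralogue of Rpl22, was at 420.8 to 564.7 (median 463.6) with vehicle and 484.9 to 670.3 (median 594.9) with agonist in WT cells. These overlapped, and the log2 fold change was 0.27 ± 0.10 (adjusted p = 0.023). It missed the threshold without WT agonist replicate 2 (adjusted p = 0.065), WT vehicle replicate 1 (0.051) or WT vehicle replicate 4 (0.060), and was -0.06 with quantile scaling. The third paralogue, Rps27l, a p53 target related to Rps27, had 0.01 ± 0.06 (adjusted p = 0.89).

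Core subunits followed with smaller values. Rpl10a, a large subunit protein of the side opposite the stalk, went from 489.7 to 552.1 (median 518.7) with vehicle to 566.4 to 640.9 (median 598.9) with agonist in WT cells, with no overlap and a log2 fold change of 0.21 ± 0.04 (adjusted p = 1.4e-04). Rpl29 had 0.22 ± 0.05 (adjusted p = 4.5e-04) and Rpl18 0.22 ± 0.07 (adjusted p = 0.0061). All 3 of these genes, Rpl10a, Rpl29 and Rpl18, were below 0 with quantile scaling, between -0.13 and -0.18, and with the same total, between -0.02 and -0.03.

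Among the smaller changes of the called cytosolic genes were those of Rpl6, Rpl10, Rps20 and Rpl27, core subunits with log2 fold changes of 0.13 to 0.14. Each missed the threshold when any of 5 to 9 single libraries was left out, WT vehicle replicates 2 and 4 and WT agonist replicates 2 and 3 among them in every case (adjusted p 0.052 to 0.095).

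**Figure D4:**
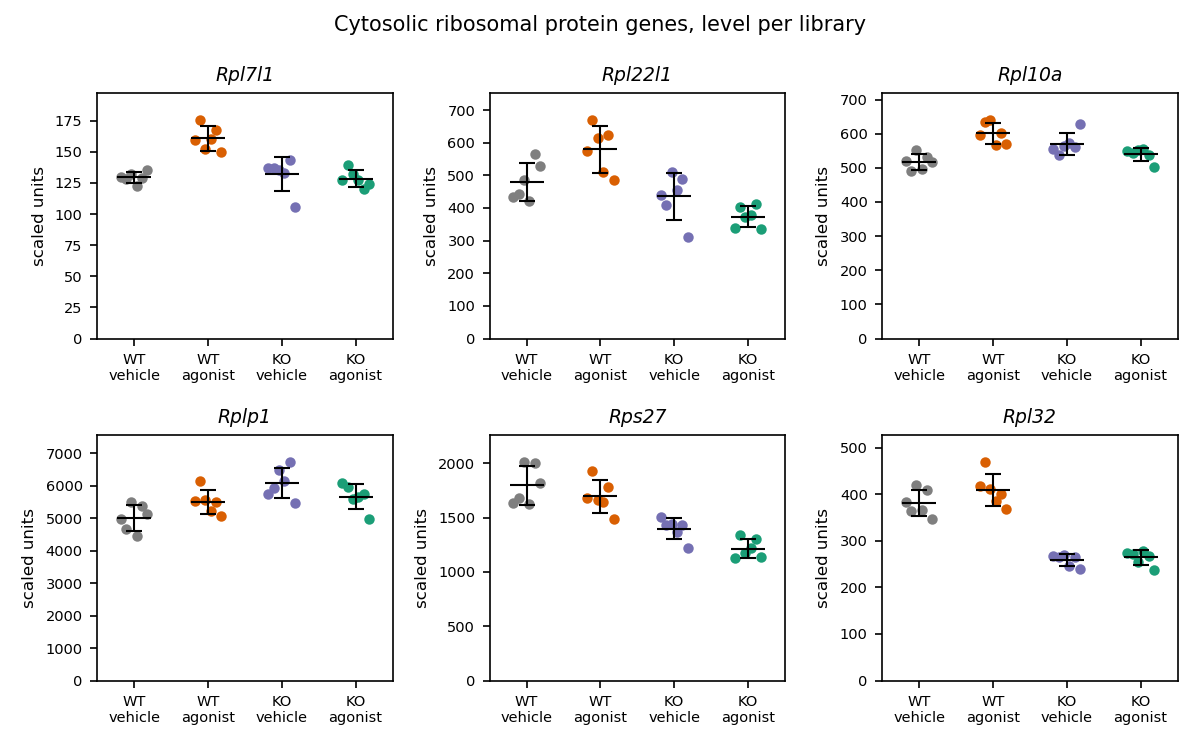
Levels of 6 cytosolic ribosomal protein genes per library in scaled units, 6 libraries per group; points are libraries, and bars show the mean and SD. Rpl7l1 and Rpl10a are higher in every WT agonist library than in any WT vehicle library, and Rpl32 is lower in every KO library than in any WT library.

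The stalk and its neighbours gave mixed calls. Rplp0, the scaffold of the stalk, had a log2 fold change of 0.17 ± 0.07 (adjusted p = 0.036), which missed the threshold without WT agonist replicates 1, 2 or 3 or WT vehicle replicates 2 or 4 (adjusted p 0.0615 to 0.0930). Rplp1 (0.14 ± 0.06, adjusted p = 0.068) and Rplp2 (0.16 ± 0.10, adjusted p = 0.18) missed the threshold, as did Rpsa, the laminin receptor precursor of the small subunit (0.20 ± 0.09, adjusted p = 0.054). Rps6, the small subunit protein that S6 kinases phosphorylate, went from 638.0 to 719.6 (median 681.5) to 671.7 to 808.2 (median 758.6) in WT cells. The ranges overlapped, and the log2 fold change was 0.15 ± 0.05 (adjusted p = 0.021); it missed the threshold without WT agonist replicate 2 (0.057), WT vehicle replicate 2 (0.051) or WT vehicle replicate 4 (0.050). No ribosomal protein gene of either class reached a 1.5-fold change.

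Other genes of the translation machinery were read in the same fit. Of all rows 28.6% were called higher and 28.6% lower as deposited, and 12.2% and 25.2% under every scaling. With quantile scaling these shares were 23.2% and 35.8%, and with the same total 12.4% and 60.1%. Of 54 ribosome biogenesis factors 44 were higher and 1 lower (median log2 fold change 0.32), and 21 were higher under every scaling, with 37 and 2 under quantile scaling and 21 and 9 with the same total. Ddx21, a nucleolar RNA helicase, went from 127.0 to 145.6 scaled units with vehicle to 250.9 to 298.8 with agonist in WT cells, a log2 fold change of 1.00 ± 0.06 (adjusted p = 1.9e-13), and Gtpbp4, a GTPase of large subunit assembly, had 0.98 ± 0.06. The box C/D snoRNP protein Nop58 had 0.77 ± 0.05 and the nucleolar GTPase Gnl2 had 0.66 ± 0.04. Initiation factors were higher in 26 and lower in 2 of 38 (median 0.27), with 10 higher and 2 lower under every scaling, but 14 higher and 14 lower with quantile scaling and 11 and 12 with the same total. Eif4e, which binds the cap, had 0.92 ± 0.05, Eif5 0.91 ± 0.05, the helicase Eif4a1 0.59 ± 0.05 and Eif2s1 0.54 ± 0.05.

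Elongation and release factors were higher in 6 and lower in 1 of 9, against 28.6% of all rows in each direction. Under every scaling 4 were higher and 1 lower, against 12.2% and 25.2% of all rows, and 2 were called in opposite directions by different scalings. The release factor Etf1 went from 124.4 to 147.7 with vehicle to 247.7 to 307.1 with agonist in WT cells, a log2 fold change of 1.02 ± 0.05 (adjusted p = 3.8e-15), and its partner Gspt1 had 0.67 ± 0.04. Abce1, which recycles ribosomes, had 0.55 ± 0.06, and Eef2k, the kinase that inhibits elongation, had -0.53 ± 0.06. Of 14 genes of RNA polymerase I and its factors, which make ribosomal RNA, 5 were higher and 2 lower. These counts were 6 and 3 under quantile scaling (23.2% and 35.8% of all rows) and 3 and 8 with the same total (12.4% and 60.1% of all rows). Rrn3, the initiation factor of that polymerase, had 0.44 ± 0.04, Polr1f 0.41 ± 0.06, Taf1a 0.30 ± 0.06 and the termination factor Ttf1 -0.39 ± 0.04. Of these 4, Taf1a alone missed the threshold with the same total (0.07).

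Factors that serve the mitochondrial ribosome were mostly lower where called. Of all rows 28.6% were called lower and 28.6% higher, and 25.2% were lower under every scaling. Of 15 mitochondrial translation factors 8 were lower and 2 higher (median -0.16), with 6 lower under every scaling. The initiation factor Mtif3 went from 11.3 to 13.0 with vehicle to 6.54 to 8.48 with agonist in WT cells, a log2 fold change of -0.59 ± 0.06 (adjusted p = 3.8e-09). The release factors Mtrf1l and Mtrfr had -0.36 ± 0.05 and -0.38 ± 0.06, and Mtfmt, which formylates the initiator tRNA, had -0.35 ± 0.06. Of 25 mitochondrial ribosome assembly factors 11 were lower and 3 higher (median -0.11), and all 11 were lower under every scaling. The rRNA methyltransferase Mrm1 had -0.79 ± 0.08, Ybey -0.60 ± 0.07, the pseudouridine synthase Trub2 -0.47 ± 0.05 and Mterf4 -0.47 ± 0.05. The subunit Ptcd3, which is not named Mrpl or Mrps, had 0.15 ± 0.04 and -0.09 with the same total.

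In KO cells the agonist comparison gave few calls among ribosomal protein genes and few among all rows. No cytosolic gene was higher and 1 was lower, and no mitochondrial gene was higher and 4 were lower, where 4.66% of all rows were called higher and 4.64% lower by limma. Voom on the recovered reads gave the same counts. At an unadjusted p under 0.05, 0 cytosolic genes were higher and 12 lower, and 1 mitochondrial gene was higher and 18 lower. In fits that each left out 1 library, 2672 to 3701 of all 11557 rows passed that unadjusted p in either direction. Here too the range pools both directions and is no background for the counts by direction. Groups did not overlap for 2 lower cytosolic and 3 lower mitochondrial genes, where 2.55% of all rows were higher and 1.97% lower in that way. With quantile scaling 2 cytosolic and 5 mitochondrial genes were lower (background 5.76% higher, 5.48% lower), and with same-total scaling 0 and 1 were (5.55% and 2.75%). The class medians with the deposited scaling were -0.06 for both classes, against -0.01 for all rows. Without KO vehicle replicate 6, 7 cytosolic (8.97%) and 6 mitochondrial genes (8.57%) were lower and 0 were higher in either class. In that fit 6.65% of all rows were higher and 7.03% lower.

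Mrpl35 was the 1 member lower under every scaling in KO cells, where 2.68% of all rows were lower and 4.47% higher in that sense. Its level was 36.1 to 46.2 (median 39.4) with vehicle and 30.5 to 37.3 (median 32.6) with agonist. The ranges overlapped slightly, with a log2 fold change of -0.27 ± 0.07 (adjusted p = 0.020), and -0.23 without KO vehicle replicate 6 (adjusted p = 0.025). Without KO agonist replicate 1 its adjusted p was 0.056. The cytosolic gene called was Rps19bp1, at 133.0 to 148.9 with vehicle and 121.5 to 132.4 with agonist (-0.13 ± 0.04, adjusted p = 0.026), and it missed the threshold without KO agonist replicate 6 (0.066) or KO vehicle replicate 3 (0.059).

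The other KO calls were Mrpl40, a mitochondria-specific large subunit protein (-0.19 ± 0.06, adjusted p = 0.038), Mrps10 (-0.15 ± 0.05, adjusted p = 0.044) and the small subunit protein Mrps17 (-0.14 ± 0.04, adjusted p = 0.030). Mrpl40 missed the threshold without KO vehicle replicates 5 or 6 or KO agonist replicates 1, 3, 4, 5 or 6 (adjusted p 0.054 to 0.088). Mrps10 did so without KO vehicle replicates 1, 3 or 5 or KO agonist replicates 1, 4, 5 or 6 (adjusted p 0.063 to 0.092). Mrps17 did so without KO vehicle replicate 5 or KO agonist replicates 1, 4 or 6 (adjusted p 0.050 to 0.072). Rpl22l1 had -0.21 ± 0.10 (adjusted p = 0.18), and -0.30 without KO vehicle replicate 6 (adjusted p = 0.027). Of the biogenesis factors 0 of 54 were higher and 9 lower, and of the initiation factors 0 of 38 were higher and 3 lower. Of all rows 4.66% were higher and 4.64% lower. Without KO vehicle replicate 6 the counts of these lists were 0 and 13, and 1 and 6, where 6.65% and 7.03% of all rows were called.

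The difference of the agonist effects, WT minus KO, was tested in the same fit. It shares its libraries with both comparisons above, so its values are given beside theirs. With the deposited scaling 23 cytosolic genes had a higher effect in WT cells and 0 a lower one, where 21.5% and 19.6% of all rows were called. At an unadjusted p under 0.05 the cytosolic counts were 35 and 0, and voom gave 23 and 0. The mitochondrial counts at that unadjusted p were 6 higher and 12 lower. In limma fits that each left out 1 library, 5334 to 6011 of all rows passed that unadjusted p in either direction. This range also pools both directions and is no background for the counts by direction. Without KO vehicle replicate 6 the 23 became 47 (60.3%), where 24.0% of all rows had a higher and 22.4% a lower effect. With quantile scaling 0 were higher and 54 lower (background 17.2% and 27.0%), and with the same total 0 and 18 (9.76% and 55.5%), so no cytosolic gene was called in 1 direction under every scaling. Of the mitochondrial genes 10 had a lower and 4 a higher effect in WT cells, or 13 and 5 without KO vehicle replicate 6. Under every scaling 8 were lower (11.4%, against 16.9% of all rows) and 0 higher (9.59% of all rows).

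Mrpl44 had the lowest interaction value, with a log2 fold change of -0.52 in WT and -0.03 in KO cells and a difference of -0.49 ± 0.09 (adjusted p = 1.4e-04), or -0.42 without KO vehicle replicate 6. Mrpl43 had -0.35 and -0.07, a difference of -0.28 ± 0.05 (adjusted p = 1.3e-04), or -0.29 without that replicate. Mrpl18, a large subunit protein of a bacterial family, had -0.25 and -0.01, a difference of -0.24 ± 0.06 (adjusted p = 0.0013), or -0.22 without it. In these 3 genes the difference was lower under every scaling. Mrps10 had 0.19 in WT and -0.15 in KO cells, a difference of 0.34 ± 0.07 (adjusted p = 1.6e-04), which came to 0.06 with the same total and did not pass the test there. Mrpl3 had 0.16 and -0.09, a difference of 0.26 ± 0.06, or -0.02 with the same total.

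Of the cytosolic genes, Rps19bp1 had 0.11 in WT and -0.13 in KO cells, a difference of 0.24 ± 0.05 (adjusted p = 3.3e-04). Rpl10a had 0.21 and -0.08, with 0.29 ± 0.06 (adjusted p = 3.6e-04), and Rpl7l1 had 0.31 and -0.03, with 0.34 ± 0.08 (adjusted p = 0.0011). Rpl29 and Rps6 had differences of 0.28 ± 0.07 and 0.27 ± 0.07. Rpl22l1 had 0.27 and -0.21, a difference of 0.48 ± 0.14 (adjusted p = 0.0086), or 0.57 without KO vehicle replicate 6. None of these 6 differences passed the test as higher with quantile or same-total scaling.

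KO against WT cells under vehicle gave calls in both classes that depended little on scaling. Of the cytosolic genes 4 were higher and 17 lower in KO cells, where 23.9% of all rows were called higher and 23.9% lower. The median was -0.09, against 0.00037 for all rows. Of the mitochondrial genes 22 were higher and 11 lower, with a median of 0.05. Under every scaling 4 cytosolic genes were higher and 15 lower, and 22 mitochondrial genes were higher and 10 lower, against 23.3% and 21.5% of all rows. Without KO vehicle replicate 6 the cytosolic counts were 6 and 21 (7.69% and 26.9%) and the mitochondrial counts 24 and 13 (34.3% and 18.6%). In that fit 26.4% of all rows were higher and 26.1% lower. Groups did not overlap for 1 higher and 10 lower cytosolic and 9 higher and 7 lower mitochondrial genes, where 13.2% of all rows were higher and 14.1% lower in that way. The labels do not name the clones behind either genotype, so Gpr39 loss and other differences between the lines cannot be told apart.

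Rpl32, a large subunit protein, was the lowest of the cytosolic genes in KO cells. Its level was 348.0 to 420.8 (median 375.1) in WT vehicle and 238.9 to 270.3 (median 265.3) in KO vehicle libraries. No KO library reached the WT range, and the log2 difference was -0.56 ± 0.06 (adjusted p = 1.0e-08), or -0.53 without KO vehicle replicate 6. Rps27, a zinc-finger protein of the small subunit whose start is shown above, was at 1624 to 2015 (median 1752) in WT and 1218 to 1503 (median 1432) in KO vehicle libraries. These were apart too, with -0.36 ± 0.07 (adjusted p = 1.4e-04), or -0.32 without KO vehicle replicate 6. Rpl37a, Rpl35a, Rpl31 and Rps28 were lower by log2 differences of -0.32, -0.29, -0.27 and -0.26, each called with and without KO vehicle replicate 6. The smallest called falls were those of Rps3a1 (-0.13 ± 0.05, adjusted p = 0.023) and Rpl7 (-0.14 ± 0.06, adjusted p = 0.046). Rps3a1 missed the threshold without WT vehicle replicate 6 (0.077) or KO vehicle replicate 4 (0.050), and Rpl7 without WT vehicle replicates 1, 3, 5 or 6 or KO vehicle replicates 4, 5 or 6 (adjusted p 0.061 to 0.093). Neither passed with quantile scaling.

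The most abundant cytosolic gene, Rplp1, was higher in KO cells. It was at 4459 to 5493 (median 5047) in WT and 5465 to 6741 (median 6035) in KO vehicle libraries, ranges that overlapped slightly, with a log2 difference of 0.28 ± 0.06 (adjusted p = 7.3e-04), or 0.31 without KO vehicle replicate 6. Rpl7a (0.15 ± 0.05, adjusted p = 0.015) and Rpl10a (0.14 ± 0.04, adjusted p = 0.010) were also higher. Rps6 had 0.15 ± 0.05 (adjusted p = 0.023), and missed the threshold without KO vehicle replicate 6 (0.051), WT vehicle replicate 2 (0.056) or WT vehicle replicate 4 (0.054). The other stalk proteins had 0.03 (Rplp0, adjusted p = 0.71) and -0.20 (Rplp2, adjusted p = 0.11, and -0.06 without KO vehicle replicate 6).

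Mitochondrial genes that were higher in KO cells included Mrpl4, a large subunit protein near the exit tunnel. It was at 94.0 to 108.7 (median 105.2) in WT and 120.0 to 126.1 (median 123.4) in KO vehicle libraries, apart, with 0.26 ± 0.04 (adjusted p = 2.3e-05), the same without KO vehicle replicate 6. Mrpl50 had 0.29 ± 0.05 (adjusted p = 9.6e-05), or 0.25 without it, Mrpl1 0.26 ± 0.07 and Mrpl16 0.25 ± 0.07. Mrps2, a small subunit protein, had 0.30 ± 0.08 (adjusted p = 0.0021), and 0.20 without KO vehicle replicate 6 (adjusted p = 1.2e-04), which was the highest of its group at 95.002 against a group median of 62.3. Mrps36 had 0.26 ± 0.10 (adjusted p = 0.037), and 0.13 without that replicate (0.067); it also missed the threshold without KO vehicle replicate 2 (0.053) or WT vehicle replicates 2 (0.074), 3 (0.057) or 6 (0.076). Mrps14 was the lowest, at 50.5 to 58.3 in WT and 20.3 to 46.1 in KO vehicle libraries, with -0.47 ± 0.13 (adjusted p = 0.0038), and -0.29 without KO vehicle replicate 6, the library at 20.3 (adjusted p = 1.8e-04). Mrpl58 had -0.16 ± 0.05 (adjusted p = 0.0064), or -0.17 without that library.

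The KO differences of the members were also read by chromosome. All 7 members on chromosome 6 were lower in KO cells: Rpl32, Mrpl19, Mrpl35, Mrpl51, Mrps25, Mrps33 and Mrps35, with a median of -0.35. The other 520 tested rows of chromosome 6 had a median of -0.33, and 71.0% of them were called lower. Mrpl51, for example, was at 20.5 to 26.3 in WT and 16.4 to 20.6 in KO vehicle libraries (-0.40 ± 0.06), and Mrps35 at 73.9 to 84.3 and 55.6 to 73.8 (-0.35 ± 0.05). Without chromosome 6 the mitochondrial counts were 22 higher and 5 lower, and the cytosolic counts 4 and 16. The shares of all rows without that chromosome are not given here, so these counts cannot be set against the all-row shares above. Members did not follow the other rows on every chromosome. On chromosome 13, 0 of 6 members were lower (median 0.0045), while the other 408 rows had a median of -0.20 and 49.5% of them were lower. On chromosome 10, 2 of 5 members were lower (median 0.031), while the other 537 rows had a median of -0.16 and 52.9% were lower. On chromosome 8, 2 of 4 members were higher, and of the other 627 rows there 55.3% were higher (median 0.17). Whether the number of chromosome copies differs between the lines was not tested.

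**Figure D5:**
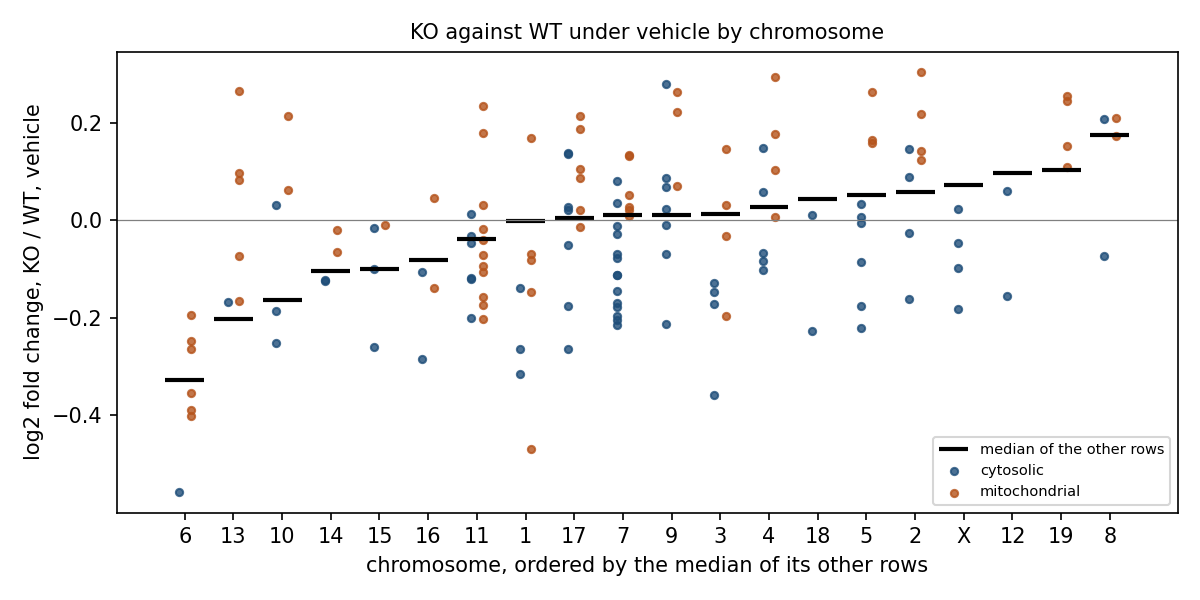
Log2 difference between KO and WT vehicle libraries for each ribosomal protein gene by chromosome; points are genes, and bars mark the median of the other tested rows of that chromosome. The 7 members on chromosome 6 lie between -0.56 and -0.19, around the median of -0.33 of the other rows there.

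Genes of ribosome biogenesis stood higher in KO cells under vehicle in 31 and lower in 5 of 54, with a median of 0.16, and the same counts held under every scaling. Of all rows 23.9% were higher and 23.9% lower, against 57.4% and 9.26% of this list. Initiation factors were higher in 14 (36.8%) and lower in 4 (10.5%) of 38. Of 15 mitochondrial translation factors 4 were higher (26.7%) and 2 lower (13.3%), and of 25 mitochondrial assembly factors 5 were higher (20.0%) and 4 lower (16.0%). Without KO vehicle replicate 6 the counts of these 4 lists were 34 and 5, 20 and 6, 4 and 1, and 6 and 2. In that fit 26.4% of all rows were higher and 26.1% lower. Comparisons with the agonist in WT cells share the WT vehicle libraries with this one, so the values stand side by side. Mrpl43, for example, had -0.35 with agonist in WT cells and 0.15 in KO against WT cells, and Rpl32 had 0.10 (not called) and -0.56.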

How the data were processed

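The authors deposited 1 table with a signal value per library and gene, made per the submitters' processing notes with STAR 2.7.8a, DESeq2, DESeq and GRCm39, whose roles are not given there; the annotation, the counter and the use of strand are not given in the sources used here. The deposited signal times gene length gave multiples of 0.1, and a factor per library (0.754 to 1.46) turned them into whole numbers within 0.05; these recovered reads were used for depth and voom alone. Here the table was multiplied by 92.1. Rows averaging under 1 scaled unit over all libraries were dropped. All 24 libraries entered limma 3.58.1 (R 4.3.3; log2 with a pseudocount of 0.5, trend, robust, 20 residual degrees of freedom, two-sided tests, Benjamini-Hochberg over all 11557 rows). SEs are moderated values over 6 libraries per group. Reads of ribosomal genes can be shared with near-identical copies; 12 pseudogene rows, 11 rows with joined names and 8 S6 kinase rows were left out. The fit was tested on simulated data. Groups and replicate numbers came from the titles; no pair of libraries was identical. Named in the text were, per class, up to 6 called genes at each end for the agonist in WT cells and for KO against WT, up to 3 at each end for the agonist in KO cells, the 5 smallest adjusted p of the interaction, the 5 highest and 5 lowest levels, a preset set of stalk, paralogue and other members, and up to 4 called genes of each other list; Mrpl14 and Mrps31, and the window of Rpl15, were added after their values were seen. Results of 2 members that this rule names are not reported here, and the preset members are described only where a comparison is given for them. Members and lists were chosen with earlier results of these data known. Alternatives were other pseudocounts, filters, scalings, moderation, fits with the compared groups alone, a replicate block, each library left out, and voom, the last chosen after seeing the data.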

Additional observations from a re-analysis of the deposited data

Results flagged for a closer look

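In 31 of 244 groups of 6 libraries checked, 1 library lay far from the other 5. Chance gives about 1 in 20 for independent groups. These groups are genes and class sums of the same libraries, so the count is no test of an excess over chance. KO vehicle replicate 6 was that library in 22 of the 31. Its cytosolic sum was 99881 scaled units. It was the lowest of its group for Rpl7l1 (105.6), Rpl18 (801.0), Rpl10 (1347), Rps20 (385.2), Rps15a (141.4), Rps29 (2720), Rpl13 (2985), Mrpl44 (55.8), Mrps34 (17.7), Mrps14 (20.3) and Mrpl9 (126.9). Extreme values in the same library were also seen for Rpl29 (1448), Rpl27 (590.8), Rps6 (884.3), Mrpl41 (33.4), Mrps2 (95.002), Mrps36 (108.4), Mrpl51 (20.6), Mrps17 (49.1), Mrpl40 (70.0) and Mrpl42 (344.007).

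KO agonist replicate 6 stood apart for the cytosolic sum (97927), Rpl10a (503.1), Rps15a (171.3), Rps15 (3761) and Mrpl9 (231.2). The remaining 4 were the mitochondrial sum in KO vehicle replicate 4 (4183), Rps23rg1 in KO vehicle replicate 5 (94.1), Mrps10 in KO agonist replicate 3 (47.6) and Mrps7 in WT agonist replicate 4 (4.89).

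By the interaction term in limma with the deposited scaling, the agonist effect differed between WT and KO cells for 23 cytosolic and 14 mitochondrial genes. Rpl22l1, described above, was among the cytosolic ones. The 10 listed here are only the genes named for the smallest adjusted p in each class. The difference, WT minus KO on the log2 scale, was 0.24 for Rps19bp1, 0.29 for Rpl10a, 0.34 for Rpl7l1, 0.28 for Rpl29, 0.27 for Rps6, 0.34 for Mrps10 and 0.26 for Mrpl3. It was -0.28 for Mrpl43, -0.49 for Mrpl44 and -0.24 for Mrpl18.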

How the results depend on the processing

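Scaling moved the counts of the agonist comparison in WT cells and of the interaction, and the cause was not tested. For the agonist in WT cells, the 23 cytosolic genes called higher became 0 with quantile and 0 with same-total scaling, and those called lower went from 0 to 64 and 41. The 6 mitochondrial genes called higher became 3 and 0, and the 26 called lower became 62 with the same total. For the interaction, the 23 higher cytosolic genes became 0 and 0 and the lower ones 54 and 18; the 4 higher mitochondrial genes became 0 with the same total, and the 10 lower ones 20 and 53. For the agonist in KO cells, the 1 lower cytosolic gene became 2 with quantile scaling, 0 with the same total and 2 with the replicate block, and the 4 lower mitochondrial genes became 1 with the same total and 1 with the compared groups alone.

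Leaving out each library in turn gave, for the agonist in WT cells, 13 to 35 higher cytosolic, 3 to 8 higher mitochondrial and 20 to 31 lower mitochondrial genes. For the agonist in KO cells it gave 0 to 7 lower cytosolic and 0 to 6 lower mitochondrial genes. For the interaction it gave 16 to 47, 3 to 5 and 7 to 13. For KO against WT it gave 3 to 6 higher and 15 to 21 lower cytosolic and 17 to 24 higher and 9 to 13 lower mitochondrial genes.

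With the replicate number as a block, the agonist in WT cells gave 24 higher cytosolic and 6 higher and 26 lower mitochondrial genes, and KO against WT 4 and 21 cytosolic and 19 and 11 mitochondrial genes. Over 36 pairs of libraries with the same number, the correlation of their deviations ran from -0.315 to 0.488, with 10 over 0.1, and 5 of 24 libraries correlated best with their own number, so the numbers were not taken to pair the samples.

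Single genes whose direction turned are given with quantile and then same-total scaling. A turn is listed only where the gene was called with the deposited scaling or with the other one. Turns without a call are left out. For the agonist in WT cells they were Rpl29 (-0.18, -0.019), Rpl18 (-0.17, -0.023), Rpl10a (-0.13, -0.027), Rps19bp1 (-0.089, -0.13), Rpl6 (-0.13, -0.11), Rpl10 (-0.19, -0.11), Rps20 (-0.18, -0.11), Rpl27 (-0.22, -0.10), Rplp0 (-0.20, -0.072), Rps6 (-0.25, -0.10), Rps27l (-0.24, -0.23), Mrpl21 (-0.0018, -0.10) and Mrpl4 (-0.031, -0.11). With quantile scaling Rpl22l1 was -0.062 and Rplp1 -0.22. With the same total Mrps10 was -0.052, Mrpl20 -0.076, Mrpl3 -0.080, Mrpl37 -0.12 and Ptcd3 -0.093. For the interaction Rpl29 was -0.19 and -0.0017, Rps6 -0.18 and -0.0046, and Rplp1 -0.24 and -0.040. Rpl10a was -0.10, Rplp0 -0.37 and Rplp2 -0.39 with quantile scaling, and Rps19bp1 -0.032 and Mrpl3 -0.020 with the same total. The cause was not tested. The lowest tested member, Mrps25, had 129 to 274 reads per library.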

Other observations

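Rows named as ribosomal pseudogenes were tested with the rest of the table but kept out of the classes. Of 12 such rows 11 were tested, and with the agonist in WT cells 3 were higher (27.3%, where 28.6% of all rows were) and 0 lower by limma (median log2 fold change 0.15). With quantile scaling 1 was higher and 3 lower, where 23.2% and 35.8% of all rows were called. The pseudogene rows held 0.255% to 0.278% of the column total in the 4 groups, against 10.8% to 11.8% for the cytosolic class. Of the subunits with other names, 0 of 2 cytosolic ones were called with the agonist in WT cells.

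Within the mitochondrial class, a CCGGAAG match was in the promoter window of 11 of the 24 matched genes that were lower with agonist in WT cells (45.8%) and of 11 of the 37 others (29.7%). Mrpl3 and Mrpl21, which were called higher with agonist, also had a match. Other motifs were searched on the same split. The most frequent of these was in 33.3% of the lower genes and in 59.5% of the others. The remaining motifs, pyrimidine runs apart, were also rarer in the lower genes. A pyrimidine run within 5 bases of the start was in 29.2% and 27.0%. No test was made of this split, since the agonist result chose the genes.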
